A study of Mus musculus with 8 samples.

Results

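The genes examined here encode the enzymes that build ceramide from serine and palmitoyl-CoA, together with 2 small proteins that set the pace of the first step. They are Sptlc1, Sptlc2, Sptssa, Ormdl3, Kdsr, Cers2, Cers4, Cers5, Cers6 and Degs1. They were taken by symbol as a pathway, with no threshold on their values but with earlier results of these data known. Paralogues of the same pathway, some with few or no counts, were left out and are given further on. All 10 genes were found among the 56805 genes of the count table and among the 16006 genes with enough counts to be tested.

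RNA was sequenced from OT-I CD8+ T cells, whose transgenic receptor recognises an ovalbumin peptide, taken from OT-I:Rosa26-Cas9 mice of C57BL/6J background that express the Cas9 nuclease in all cells. All cells were activated in vitro with CD3/CD28 beads, given IL-2, IL-7 and IL-15, transduced with a lentiviral vector carrying a guide against Elovl1 (sgElovl1) or a non-targeting guide (sgNT), and sorted for the vector's CD90.1 marker 3 days later. Each of 2 experiments held 2 sgElovl1 and 2 sgNT replicates, described as mice, and no age is given in the labels. The mice of a group were summed within each experiment, so that the 8 samples stand as 4 columns, and a value below has n = 2 columns per condition. Transduced cells were a pool that may hold edited and unedited alleles, not a clone, and a nuclease cut need not lower the RNA of a gene.

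Ceramide is the backbone of all sphingolipids. In the endoplasmic reticulum, serine palmitoyltransferase condenses serine with palmitoyl-CoA, a reductase converts the product to sphinganine, ceramide synthases attach a second fatty acid whose length depends on the synthase, and a desaturase completes ceramide. ELOVL1, the targeted enzyme, elongates saturated and monounsaturated fatty acids to the very long chains that some ceramide synthases use, and in T cells sphingolipids, together with cholesterol, form part of the plasma membrane in which the antigen receptor sits. The question addressed here is whether RNA for the enzymes that consume these fatty acids moved when Elovl1 was targeted.

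The 4 columns held 49068952 to 63623476 counts. Values are CPM, counts put on a common column total after TMM scaling, and 3 counts, taken as the limit that a count of 0 allows, correspond to 0.0474 to 0.0601 CPM, which covers counting error only. The 8 CD8 T cell markers, among them Cd3e, Cd8a and Lck, summed to 4449 to 4900 CPM in every column. Markers of B cells (3 genes) summed to 0.410 to 0.920 CPM, of NK cells (2 genes) to 0.988 to 1.79 CPM, of erythroid cells (3 genes) to 0.247 to 0.433 CPM, and Cd4 to 0 to 0.114 CPM. The 4 myeloid markers summed to 3.86 and 3.40 CPM in the sgElovl1 and sgNT columns of experiment 2, against 0.893 and 0.947 CPM in those of experiment 1. Itgam carried most of that difference, with 2.69 and 2.28 CPM in experiment 2, against 0.399 and 0.253 CPM in experiment 1, while Lyz2 was at 0 to 0.0200 CPM and Adgre1 at 0 to 0.162 CPM in every column. Elovl1 itself, read as a check of the labels, had 55.8 and 61.3 CPM in sgElovl1 cells of experiments 2 and 1, against 93.5 and 110 CPM in sgNT cells. The fall, -0.80 on the log2 scale with an SE of 0.0673 (adjusted p = 3.80e-28, edgeR quasi-likelihood test), left 57.5% of the sgNT level. The exact two-sided permutation test of these columns gave p = 0.333, the smallest value that 2 columns against 2 allow. With any 1 column left out, which leaves no room for experiment as a term, the log2 fold change was -0.89 to -0.68 and did not pass the test.

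Promoter sequences are shown for the members that moved most clearly between the experiments, which is described further on, to place the letters beside the values: in each direction the 2 with the smallest adjusted p. They are RefSeq windows of build GRCm38.p6, from 250 bases before to 50 after the annotated start, written 5′ to 3′ on the strand of the gene. Capitals mark the GC box, whose letters are GGGCGG, the CCAAT box, the E-box with the letters CACGTG, and the TATA box, spelled TATAAA, each searched on both strands. Degs1, lower in experiment 2, lies at chr1:182282146-182282445 on the minus strand, and Sptssa, also lower, at chr12:54656523-54656822 on the minus strand.
Degs1: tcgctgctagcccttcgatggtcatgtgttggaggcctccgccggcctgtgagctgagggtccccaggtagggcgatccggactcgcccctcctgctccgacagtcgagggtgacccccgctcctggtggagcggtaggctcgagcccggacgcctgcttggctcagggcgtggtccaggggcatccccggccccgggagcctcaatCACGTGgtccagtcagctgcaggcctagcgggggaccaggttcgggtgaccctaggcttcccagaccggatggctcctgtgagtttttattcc
Sptssa: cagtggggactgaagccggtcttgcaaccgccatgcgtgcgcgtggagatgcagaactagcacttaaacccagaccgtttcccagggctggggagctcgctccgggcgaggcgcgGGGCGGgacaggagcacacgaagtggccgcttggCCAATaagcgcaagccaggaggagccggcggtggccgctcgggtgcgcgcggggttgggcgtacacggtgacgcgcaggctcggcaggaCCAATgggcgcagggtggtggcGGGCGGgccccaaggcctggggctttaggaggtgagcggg
Kdsr, higher in experiment 2, lies at chr1:106759693-106759992 on the minus strand, and Ormdl3, also higher, at chr11:98587196-98587495 on the minus strand.
Kdsr: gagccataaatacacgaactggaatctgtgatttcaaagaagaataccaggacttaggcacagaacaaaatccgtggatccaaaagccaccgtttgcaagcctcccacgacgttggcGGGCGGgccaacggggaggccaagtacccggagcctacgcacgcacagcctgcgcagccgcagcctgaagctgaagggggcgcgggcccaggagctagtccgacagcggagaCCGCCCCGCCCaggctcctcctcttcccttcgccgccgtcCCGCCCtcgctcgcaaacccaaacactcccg
Ormdl3: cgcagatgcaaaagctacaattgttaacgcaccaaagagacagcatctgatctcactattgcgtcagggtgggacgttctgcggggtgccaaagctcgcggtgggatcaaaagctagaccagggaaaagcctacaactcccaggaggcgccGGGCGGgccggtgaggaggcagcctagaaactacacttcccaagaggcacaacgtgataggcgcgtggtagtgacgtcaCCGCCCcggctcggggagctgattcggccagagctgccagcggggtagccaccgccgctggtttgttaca
In these windows Degs1 had 1 E-box and none of the other motifs, Sptssa had 2 GC boxes and 2 CCAAT boxes, Kdsr had 4 GC boxes and Ormdl3 had 2 GC boxes. Over all members, 11 windows were found, 2 of them for Cers2. Of these, 8 held a GC box, 5 a CCAAT box, 3 an E-box and 0 a TATA box, beside 35.66%, 37.41%, 7.15% and 13.62% of the 32851 promoters in the same table. The windows of the members had 54.3% to 75.0% GC. The promoters set beside them were not matched for base content, and no difference in motifs was tested. A match is a run of letters and was not read as a bound site.

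The members differed widely in level. Per kilobase of annotated exon, averaged over the 4 columns, the small subunit gene Sptssa had the highest level with 42.7 CPM per kb (33.2 to 53.0), and Cers2, whose enzyme makes ceramides with very long acyl chains, had 40.2 CPM per kb (37.8 to 41.8). The desaturase gene Degs1 followed with 29.8 CPM per kb (24.1 to 36.2). Ranges of neighbours in this order overlapped between Sptssa and Cers2, so that their order is not fixed by these columns, while Cers2 and Degs1 did not overlap. Cers5, which uses palmitoyl-CoA, had 19.4 CPM per kb (18.8 to 20.4) and overlapped Sptlc1 with 16.0 CPM per kb (12.2 to 19.4). Ormdl3 with 10.2 CPM per kb (8.33 to 11.7) and Sptlc2 with 10.02 CPM per kb (9.79 to 10.4) also overlapped. The last were Kdsr with 3.57 CPM per kb (2.68 to 4.56), Cers4 with 2.47 CPM per kb (1.98 to 2.85) and Cers6 with 0.729 CPM per kb (0.629 to 0.808). Kdsr and Cers4 overlapped, whereas Cers6 lay below every other member. These levels use the merged exon length of all protein-coding transcripts in the GENCODE M21 annotation. It was 9.505 kb for Cers4, the longest of the members, and which transcripts the cells used was not known. By mean CPM, with no division by length, Cers4 (23.4) lay above Ormdl3 (22.2) and Kdsr (19.7). The counts covered whole genes with introns, so that a long gene such as Cers6 can hold intronic counts that its exon length does not reflect. Together the 10 genes held 0.0442% to 0.0499% of the counts of a column.

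**Figure D1:**
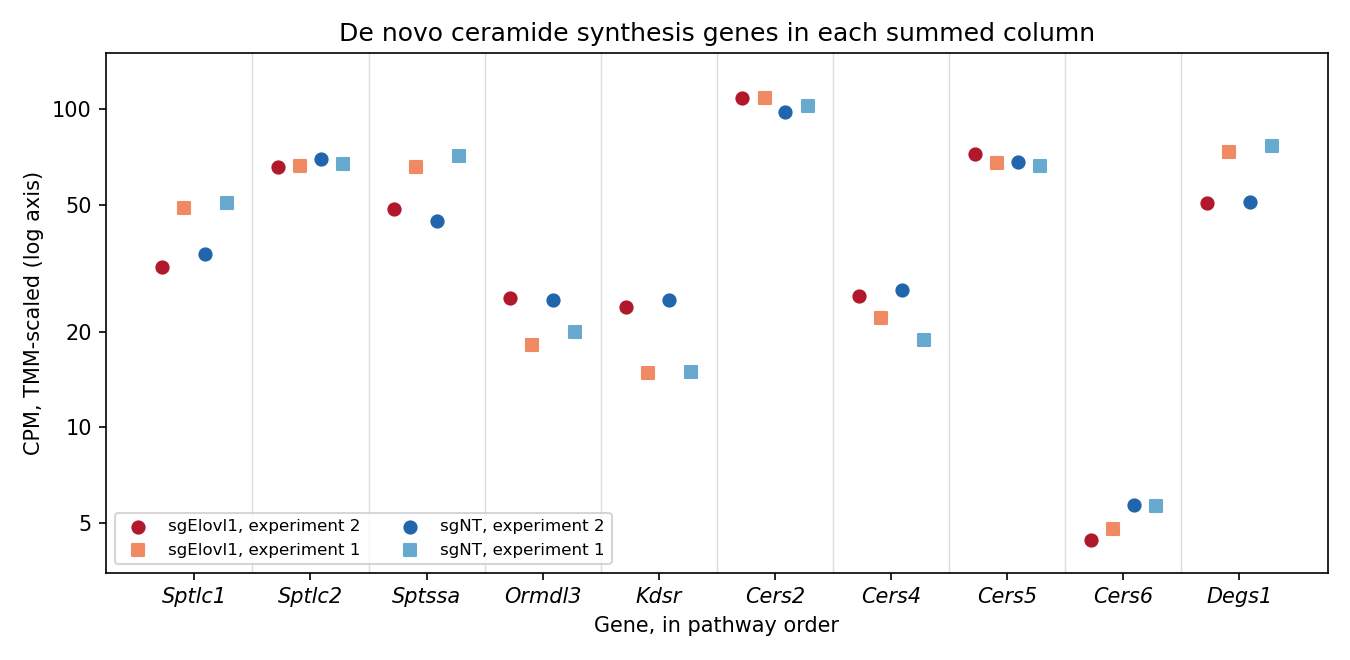
CPM after TMM scaling (log axis) of the 10 ceramide synthesis genes in each of the 4 summed columns, with sgElovl1 in red and sgNT in blue, and experiment 2 as circles and experiment 1 as squares. Circles and squares separate for Sptlc1, Sptssa, Ormdl3, Kdsr, Cers4 and Degs1. Within an experiment, red and blue lie furthest apart for Cers6, with both red points below both blue points, and for Cers4 in experiment 1.

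In sgElovl1 against sgNT cells, none of the ceramide synthesis genes passed the test. The log2 fold changes of the 10 members had a median of -0.04 and a median size of 0.0568, with 3 above and 7 below 0. Over all 16006 genes tested, the median was -0.01 and the median size 0.116. The members averaged 5.15 to 104 CPM, and no set of genes at like levels was compared, here or between the experiments. At an adjusted p below 0.05 the edgeR quasi-likelihood test called 0 of 10 members, and 0 had an unadjusted p below 0.05. Cers2 had one with upper-quartile scaling, with TMM computed without the mitochondrial and the 20 most counted genes, and with a filter at a mean of 5 CPM. Of all genes tested, 1.20% were called (192, with 122 higher and 70 lower, and 1698 at an unadjusted p below 0.05). Other scalings gave a more uneven split: DESeq2 factors called 132 genes higher and 44 lower, upper-quartile scaling 182 and 57, and TMM computed without the mitochondrial and the 20 most counted genes 173 and 44. limma-voom called 0 of 10 members as well. DESeq2 called 0 of the 7 members to which its Wald test gave an adjusted p and 0 of the 6 to which its likelihood-ratio test did, while Kdsr, Cers6 and Ormdl3 had none in either test and Cers4 none in the likelihood-ratio test. Because the RNA was from bulk cells, less RNA per cell and fewer cells with that RNA cannot be told apart in any of these values.

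The first step is carried by serine palmitoyltransferase, in which SPTLC1 and SPTLC2 form the catalytic pair. Sptlc1 had 31.9 and 48.8 CPM in sgElovl1 cells of experiments 2 and 1, against 35.0 and 50.6 CPM in sgNT cells. The values overlapped between conditions, and the log2 fold change was -0.09 (SE 0.0747, 95% interval -0.24 to 0.05, adjusted p = 0.734, edgeR). Sptlc2 had 65.7 and 66.4 CPM in sgElovl1 cells, against 69.6 and 67.2 CPM in sgNT cells. Here the conditions did not overlap, but the difference was small, with a log2 fold change of -0.05 (SE 0.0687, interval -0.19 to 0.08, adjusted p = 0.885). Sptssa, whose product binds the catalytic pair and raises its activity, had 48.6 and 65.6 CPM in sgElovl1 cells, against 44.6 and 71.3 CPM in sgNT cells. Its sign differed, at 0.12 on the log2 scale in experiment 2 and -0.12 in experiment 1, which gave -0.0030 over both (SE 0.0705, interval -0.14 to 0.14, adjusted p = 0.993). Ormdl3, which encodes an inhibitor of the enzyme that responds to ceramide, had 25.5 and 18.2 CPM in sgElovl1 cells, against 25.2 and 19.9 CPM in sgNT cells. The conditions overlapped, with a log2 fold change of -0.05 (SE 0.0895, interval -0.23 to 0.12, adjusted p = 0.912).

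Kdsr encodes the reductase that makes sphinganine. It had 23.9 and 14.8 CPM in sgElovl1 cells of experiments 2 and 1, against 25.2 and 14.9 CPM in sgNT cells, and the log2 fold change was -0.05 (SE 0.0945, interval -0.23 to 0.14, adjusted p = 0.935, edgeR). Degs1, the desaturase gene at the end of the pathway, had 50.9 and 73.1 CPM in sgElovl1 cells, against 51.1 and 76.5 CPM in sgNT cells. Its fold change on the log2 scale was -0.04 (SE 0.0695, interval -0.17 to 0.10, adjusted p = 0.925). For both genes the columns of one experiment lay closer together than the columns of one condition.

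The ceramide synthases take acyl-CoAs of different length, and it is here that the product of ELOVL1 enters the pathway. CERS2 prefers very long acyl chains. Cers2 had 108 CPM in both sgElovl1 columns, against 98.0 and 102 CPM in the sgNT columns of experiments 2 and 1. Both sgElovl1 columns were above both sgNT columns, and the fold was 1.08 (95% interval 0.989 to 1.18, log2 fold change 0.11, SE 0.0653, adjusted p = 0.564, edgeR). CERS4 prefers long acyl chains as well. Cers4 had 25.8 and 22.1 CPM in sgElovl1 cells, against 27.1 and 18.8 CPM in sgNT cells, with a log2 fold change of 0.08 (SE 0.0876, interval -0.09 to 0.25, adjusted p = 0.846). Its sign differed between the experiments, with -0.07 in experiment 2 and 0.23 in experiment 1.

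CERS5 and CERS6 prefer palmitoyl-CoA, a chain made without ELOVL1. Cers5 had 72.4 and 67.9 CPM in sgElovl1 cells of experiments 2 and 1, against 68.1 and 66.5 CPM in sgNT cells, and the log2 fold change was 0.06 (SE 0.0684, interval -0.07 to 0.19, adjusted p = 0.854, edgeR). Cers6 had 4.44 and 4.81 CPM in sgElovl1 cells, from 246 and 253 counts, against 5.71 and 5.65 CPM in sgNT cells, from 285 and 358 counts. Both sgElovl1 columns lay below both sgNT columns, and the fold was 0.814 with the widest interval of the members, 0.632 to 1.05 (log2 fold change -0.30, SE 0.186, adjusted p = 0.608). Cers6 thus had the largest fold change of the 10 members and also the fewest counts. Its interval did not tell the difference apart from no change.

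**Figure D2:**
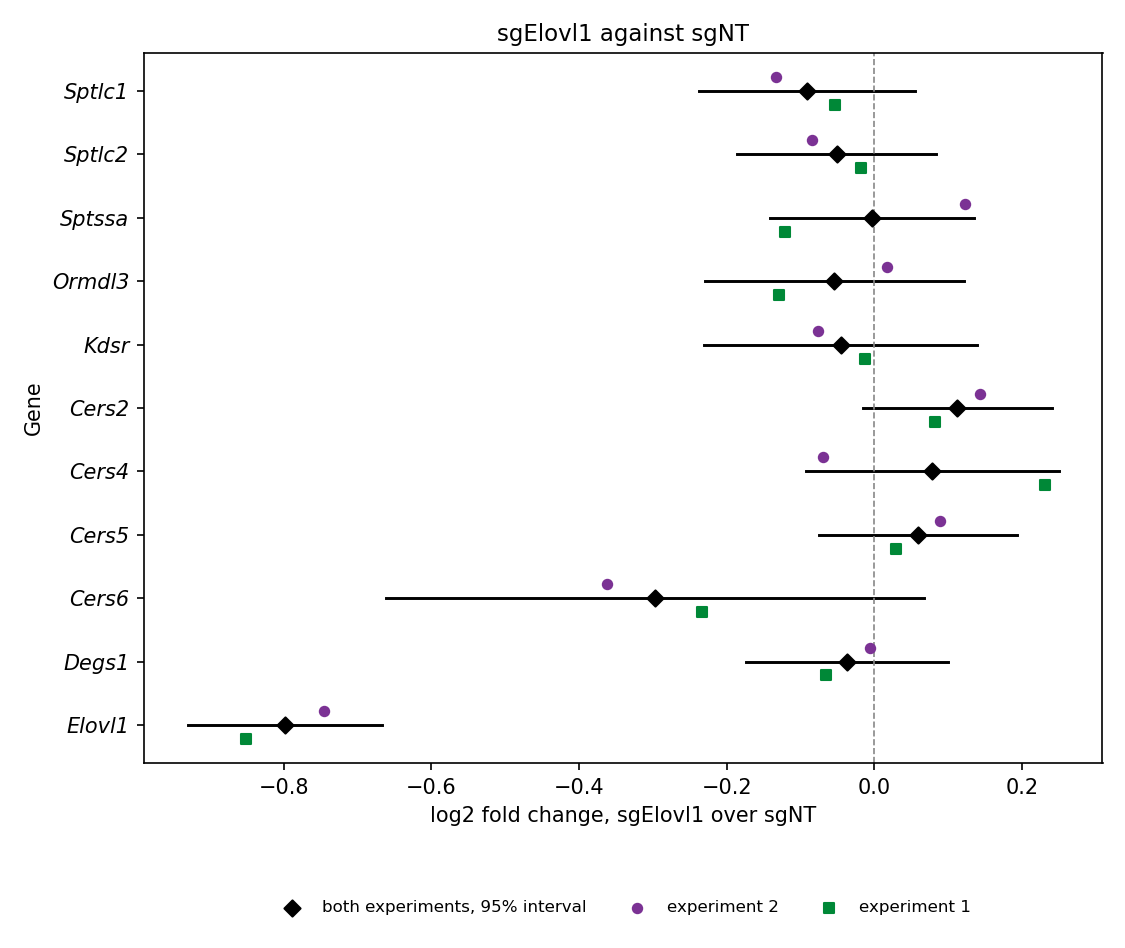
Log2 fold change of sgElovl1 over sgNT for the 10 ceramide synthesis genes and for Elovl1, with the fit over both experiments as black diamonds with 95% intervals, experiment 2 as purple circles and experiment 1 as green squares. The intervals of all 10 members cover 0, whereas Elovl1 lies at -0.80.

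The effect of sgElovl1 on the members was also compared between the experiments, with a likelihood-ratio test that takes the spread from the trend of all genes, since 1 column per group and experiment leaves no spread of its own. It called 0 of 10 members, 0 had an unadjusted p below 0.05, and DESeq2's size factors in place of TMM also gave 0. Of all genes tested, 0.119% were called (19). The largest differences, as experiment 2 minus experiment 1, were those of Cers4 (-0.30 on the log2 scale, adjusted p = 0.906, edgeR) and Sptssa (0.24, adjusted p = 0.898).

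The relative make-up of the synthases was taken as a ratio within each column, which does not depend on scaling. The log2 ratio of Cers2 plus Cers4 to Cers5 plus Cers6 was 0.80 and 0.84 in sgElovl1 cells of experiments 2 and 1, against 0.76 and 0.75 in sgNT cells. The difference, as sgElovl1 minus sgNT, was 0.04 in experiment 2 and 0.10 in experiment 1, with a mean of 0.0683. With the log2 CPM of each pair averaged in place of the sum, so that Cers6 weighs as much as Cers5, the mean difference was 0.22. Cers2 and Cers5 carried most of the CPM in these sums. The ratio of the inhibitor gene Ormdl3 to Sptlc1 plus Sptlc2 was -1.94 and -2.66 in sgElovl1 cells, against -2.05 and -2.57 in sgNT cells. As sgElovl1 minus sgNT this was 0.12 in experiment 2 and -0.10 in experiment 1, so that its direction differed. No test was made of a ratio over members.

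Between the experiments, by contrast, 6 of 10 members changed, 3 in each direction. Sptlc1, Sptssa and Degs1 were lower in experiment 2. The 3 that were higher were Kdsr, Ormdl3 and Cers4. The median log2 fold change of the members was -0.0065 and their median size 0.394, beside -0.0022 and 0.469 over all genes tested. The share of all genes called was 55.6% (8896), with 26.4% (4219) higher and 29.2% (4677) lower in experiment 2, so that the members were not set apart by their number. The labels name the experiments and give no cause for a difference between them. The share of mitochondrial counts was 14.3% and 10.2% in the sgElovl1 and sgNT columns of experiment 2, against 9.72% and 7.72% in those of experiment 1, and the summed myeloid markers also differed as given above. In each experiment the mitochondrial share was also higher in the sgElovl1 than in the sgNT column. The part of this share or of the myeloid markers in the results, those for sgElovl1 included, was not tested.

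Sptlc1 was lower in experiment 2, with 31.9 and 35.0 CPM in sgElovl1 and sgNT cells, against 48.8 and 50.6 CPM in experiment 1. The log2 fold change was -0.57 (SE 0.0747, adjusted p = 1.36e-13, edgeR), with -0.61 in sgElovl1 and -0.53 in sgNT cells. Sptlc2, its catalytic partner, did not pass the test, with a log2 fold change of 0.02 (SE 0.0687, adjusted p = 0.855). The log2 ratio of Sptlc1 to Sptlc2 was accordingly -1.04 and -0.99 in sgElovl1 and sgNT cells of experiment 2, against -0.45 and -0.41 in experiment 1. This ratio and those of Ormdl3 to Ormdl1 plus Ormdl2, Degs1 to Degs2 and Cers2 to Cers5 were chosen after the values were seen. Sptssa had 48.6 and 44.6 CPM in experiment 2, against 65.6 and 71.3 CPM in experiment 1, a log2 fold change of -0.55 (SE 0.0706, adjusted p = 3.39e-14). The fall was 0.43 in sgElovl1 (-0.43) and 0.68 in sgNT cells (-0.68) on the log2 scale. Thus 2 of the 3 genes for subunits of the enzyme fell in experiment 2, while Sptlc2 had an interval of -0.12 to 0.15.

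Ormdl3, the inhibitor gene, was higher in experiment 2, with 25.5 and 25.2 CPM in sgElovl1 and sgNT cells, against 18.2 and 19.9 CPM in experiment 1. On the log2 scale the difference was 0.41 (SE 0.0895, adjusted p = 1.22e-05, edgeR). The ratio of Ormdl3 to Sptlc1 plus Sptlc2 was 0.62 higher in experiment 2 on the log2 scale, which in linear terms spans 0.158 to 0.261 over the 4 columns. Kdsr had the largest change of the members, with 23.9 and 25.2 CPM in experiment 2, against 14.8 and 14.9 CPM in experiment 1. The log2 fold change was 0.72 (SE 0.0946, adjusted p = 1.78e-13), with 0.69 in sgElovl1 and 0.75 in sgNT cells. Degs1 had 50.9 and 51.1 CPM in experiment 2, against 73.1 and 76.5 CPM in experiment 1, with a log2 fold change of -0.55 (SE 0.0696, adjusted p = 1.50e-14). For each of these genes the columns of experiment 2 lay wholly on one side of those of experiment 1.

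Of the synthases, only Cers4 passed the test between the experiments. It had 25.8 and 27.1 CPM in sgElovl1 and sgNT cells of experiment 2, against 22.1 and 18.8 CPM in experiment 1, a log2 fold change of 0.37 (SE 0.0876, adjusted p = 5.77e-05, edgeR). Cers2 (-0.03, adjusted p = 0.728), Cers5 (0.06, adjusted p = 0.443) and Cers6 (-0.05, adjusted p = 0.846) did not. With upper-quartile scaling, which moved the median of all genes to 0.08, Cers5 also passed, at 0.15 (adjusted p = 0.0468), and the signs of Cers2 and Cers6 turned. The 6 members named above were called under each of the 14 settings, the removal of each column in turn included.

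Genes with GC-rich transcripts tended to be higher in experiment 2. Over the 15039 tested genes matched to a transcript (94.0%), split into 5 equal bins of GC content, the median log2 fold change was -0.17 in the lowest bin and 0.24 in the highest. The longest transcripts of Kdsr and Cers4, higher in experiment 2, had 41.7% and 43.5% GC and fell in the lowest bin, as did that of Sptssa with 40.7%, which was lower. Relative to the median of its own bin, Kdsr lay at 0.89, Cers4 at 0.55 and Ormdl3, with 56.6% GC in the highest bin, at 0.17. Sptlc1 lay at -0.43, Degs1 at -0.41 and Sptssa at -0.38. The 6 genes kept their signs on this scale, and of them Ormdl3 stood closest to 0. Members that were not called reached like values, with Cers5 at 0.20 and Sptlc2 at 0.16, while Cers6 lay at 0.09 and Cers2 at -0.0094. The part of GC content in these differences was not tested.

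**Figure D3:**
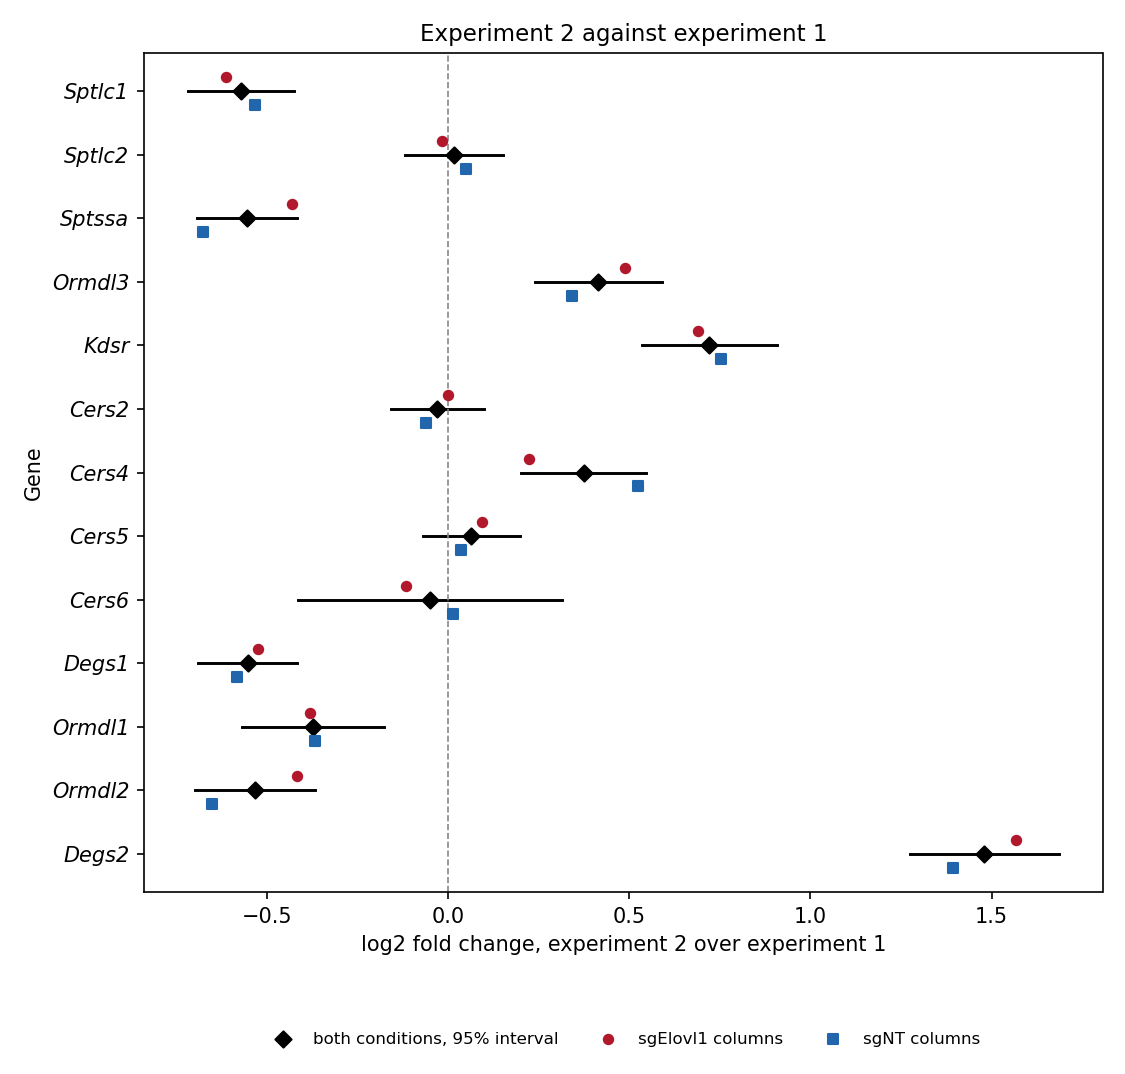
Log2 fold change of experiment 2 over experiment 1 for the 10 ceramide synthesis genes and for Ormdl1, Ormdl2 and Degs2, with the fit over both conditions as black diamonds with 95% intervals, sgElovl1 columns as red circles and sgNT columns as blue squares. Degs2 lies at 1.48, Kdsr at 0.72, and Sptlc1, Sptssa and Degs1 near -0.55, each with the same sign in both conditions.

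The pathway has 7 further genes, which are paralogues of the members. In sgElovl1 against sgNT cells, 0 of the 4 that could be tested were called, 0 had an unadjusted p below 0.05, and their median log2 fold change was 0.02. Sptlc3 and Sptssb, alternative subunits of serine palmitoyltransferase, had 0 counts in every column. Cers3, the synthase of the epidermis, had 1 and 0 counts in sgElovl1 cells of experiments 2 and 1, against 0 and 8 counts in sgNT cells, and was not tested. Cers1, which makes ceramides with stearoyl chains in brain and muscle, had 23 and 4 counts in sgElovl1 cells, against 17 and 11 counts in sgNT cells. The annotated span of Gdf1 on the same strand, introns included, covers 49.5% of the exon length of Cers1, so that the counts of Cers1 are uncertain. The pathway in these cells was thus read through the 10 members, Ormdl1, Ormdl2 and Degs2.

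Ormdl1 and Ormdl2 encode the other inhibitors of serine palmitoyltransferase. In contrast to Ormdl3 they were lower in experiment 2. Ormdl2 had 23.1 and 19.98 CPM in sgElovl1 and sgNT cells of experiment 2, against 30.9 and 31.4 CPM in experiment 1, with a log2 fold change of -0.53 (SE 0.0845, adjusted p = 1.36e-09, edgeR). Ormdl1 had 14.8 and 15.2 CPM in experiment 2, against 19.3 and 19.6 CPM in experiment 1, with a log2 fold change of -0.37 (SE 0.0999, adjusted p = 4.84e-04, edgeR). However, 99.2% of its exon length lies within the annotated span of Gm28778 on the same strand, introns included. The log2 ratio of Ormdl3 to Ormdl1 plus Ormdl2 was -0.57 and -0.48 in sgElovl1 and sgNT cells of experiment 2, against -1.46 and -1.36 in experiment 1. In sgElovl1 against sgNT cells the log2 fold changes were -0.03 for Ormdl1 (adjusted p = 0.963) and 0.09 for Ormdl2 (adjusted p = 0.793).

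Degs2 encodes a desaturase that also hydroxylates and so makes phytoceramides. It had 25.2 and 22.6 CPM in sgElovl1 and sgNT cells of experiment 2, against 8.50 and 8.59 CPM in experiment 1, with a log2 fold change of 1.48 (SE 0.105, adjusted p = 1.03e-42, edgeR). Degs1 moved the other way, and the log2 ratio of Degs1 to Degs2 was 1.01 and 1.18 in sgElovl1 and sgNT cells of experiment 2, against 3.11 and 3.16 in experiment 1. In sgElovl1 against sgNT cells the log2 fold change of Degs2 was 0.08 (adjusted p = 0.880).

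**Figure D4:**
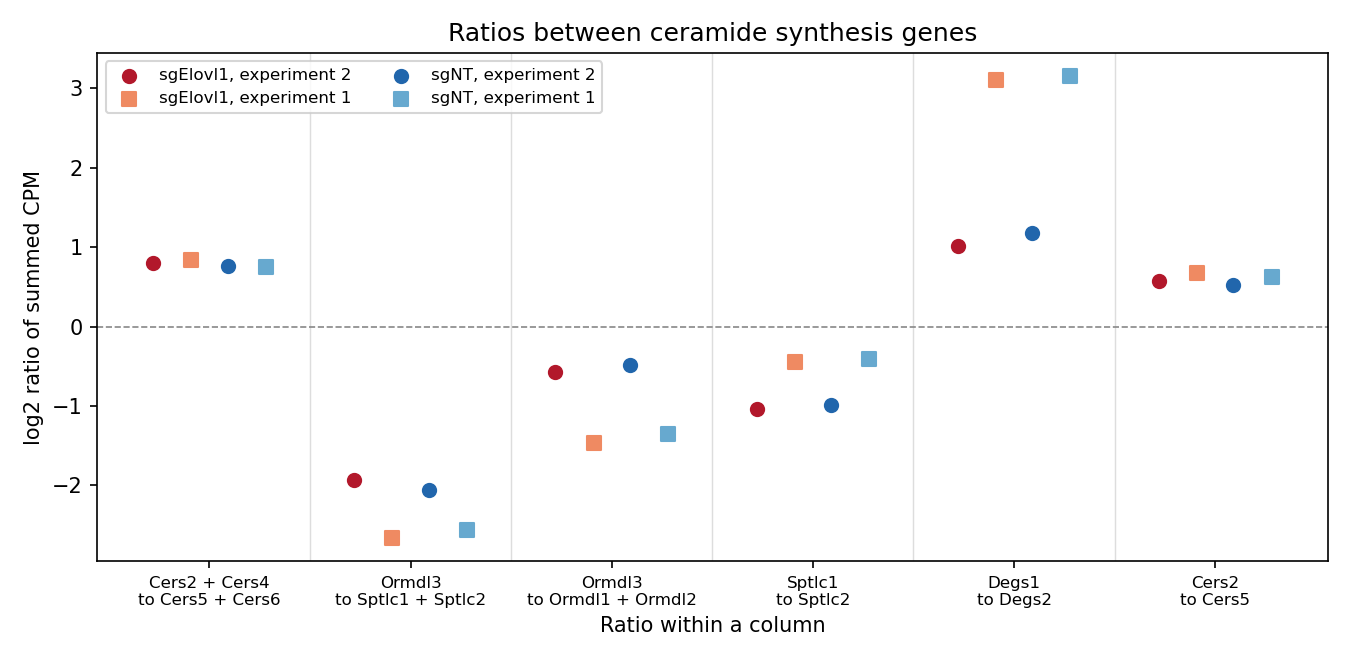
Log2 ratios of summed CPM between ceramide synthesis genes within each of the 4 columns, with sgElovl1 in red, sgNT in blue, experiment 2 as circles and experiment 1 as squares. The first ratio, of synthases, lies between 0.75 and 0.84 in every column and that of Cers2 to Cers5 between 0.53 and 0.67. The ratios of Ormdl3 to Sptlc1 plus Sptlc2, Ormdl3 to Ormdl1 plus Ormdl2, Sptlc1 to Sptlc2 and Degs1 to Degs2 differ between the experiments.

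Genes that use ceramide or return sphingoid bases to it were counted beside the members. Of 23 such genes 18 were tested, and in sgElovl1 against sgNT cells 0 were called by edgeR, 2 had an unadjusted p below 0.05, beside 10.6% of all genes tested, and the median log2 fold change was 0.02. The 2, named for their p alone, were Smpd2, a neutral sphingomyelinase gene that had 67.9 and 29.8 CPM in sgElovl1 cells of experiments 2 and 1 against 55.1 and 27.0 CPM in sgNT cells, and Cerk, the ceramide kinase gene, with 98.1 and 50.8 CPM against 91.0 and 44.2 CPM. Their log2 fold changes were 0.23 (SE 0.0740, adjusted p = 0.110) for Smpd2 and 0.15 (SE 0.0685, adjusted p = 0.375) for Cerk, above 0 in both experiments. Between the experiments 11 of the 18 were called, 5 higher and 6 lower in experiment 2, close to the 55.6% of all genes, and 9 to 11 were called with 1 column left out. Smpd2 (1.11, adjusted p = 6.74e-48) and Cerk (0.99, adjusted p = 2.09e-45) were higher. Smpd4, another neutral sphingomyelinase gene (-0.41, adjusted p = 2.62e-08), and Acer3, an alkaline ceramidase gene (-0.87, adjusted p = 5.78e-07), were lower.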

How the data were processed

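As the methods and the processing notes of the submitters have it, the authors aligned stranded, paired-end mRNA reads with STAR 2.7.10b to GRCm39 and counted them with featureCounts 2.0.1 over whole genes, introns included, in reverse-stranded mode. The deposited table holds raw counts, with the 2 replicate mice of each group and experiment summed by the authors into 1 column. After filterByExpr (minimum count 10) and TMM scaling, genes were tested in edgeR 4.0.16 under R 4.3.3 (quasi-likelihood F test) in a model of experiment plus condition, with 1 residual degree of freedom and Benjamini-Hochberg adjustment over 16006 genes (threshold 0.05). The prior degrees of freedom were infinite, so SE and p-values rest on a dispersion trend shared by all genes (biological coefficient of variation 6.98%). They do not measure the spread between mice. The scripts were tested on simulated data. Alternatives were other scalings and filters, DESeq2 1.42.0, limma-voom (limma 3.58.1), fits without 1 term and each column left out. Members and lists were chosen with earlier results of these data known, and the GC bins and some ratios after values were seen. Every member, Elovl1 and the 7 further pathway genes are named. Of the genes that use ceramide, those called plus the 2 with the smallest p are named for sgElovl1, and the 2 with the smallest p in each direction between experiments. Exon lengths, overlaps and GC content came from GENCODE M21 (GRCm38), matched by symbol.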

Additional observations from a re-analysis of the deposited data

How the results depend on the processing

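No paired analysis was possible because each deposited column sums the 2 replicate mice of an experiment, so that a block by replicate number could not be fitted. The term for experiment in the main model does match the sgElovl1 and sgNT columns of an experiment. Under every alternative run, 0 members were called for sgElovl1 (DESeq2 gave only 6 or 7 of them an adjusted p), and between the experiments 6, or 7 with upper-quartile factors. Of 130 values of a member under an alternative for sgElovl1, 105 kept their sign and stayed short of the threshold, 7 kept their sign but had no adjusted p in DESeq2, and 18 turned their sign, all with adjusted p near 1. Between the experiments 120 kept both, 9 turned their sign and 1 (Cers5, upper-quartile factors) passed the test. For sgElovl1, Sptssa turned to 0.0110 with DESeq2 size factors, 0.0158 with upper-quartile factors, 0.0195 with mitochondrial and top genes left out of scaling, 0.0137 at a mean of at least 5 CPM and 0.0129 in both DESeq2 tests. With 1 column left out, the model held no experiment term, so that these fold changes also carry the difference between the experiments. The ranges were then -0.42 to 0.21 for Sptlc1, -0.30 to 0.35 for Sptssa and -0.42 to 0.40 for Kdsr. For Cers4 the range was -0.18 to 0.37, for Degs1 -0.32 to 0.27 and for Ormdl3 -0.29 to 0.18. Between the experiments, Cers2 turned to 0.0534 with upper-quartile factors and 0.0318 at 5 CPM, and Cers6 to 0.0346 and 0.0138. With 1 column left out, and so no condition term, Sptlc2 ranged from -0.0090 to 0.0554, Cers2 from -0.11 to 0.0570 and Cers6 from -0.22 to 0.12. Elovl1 stayed at -0.80 with no experiment term but lost its call (adjusted p = 1.00, edgeR), as it did with any 1 column left out (-0.89 to -0.68). The synthase ratio moved to 0.22 when the log2 CPM of each pair were averaged, which gives the low Cers6 the same weight as Cers5. The 192 genes called for sgElovl1 became 94 with no filter, 35 at 5 CPM, 26 in both DESeq2 tests, 0 with no experiment term (19 at an unadjusted p below 0.05) and 0 to 6 with 1 column left out. The 19 genes whose effect differed between experiments became 606 with a common dispersion and 12 with no filter. In the settings where Elovl1 itself lost its call, a member left uncalled says little. Causes were not tested. Intervals as wide as that of Cers6 limit what these columns can show.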
